A study of Homo sapiens with 10 samples.

Results

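Expression after siRNA against p53 was compared with expression after control siRNA in SKBR3 cells that had received no vitamin D3. SKBR3 is an established breast carcinoma line with amplified HER2 (ERBB2) and a mutant p53, carried by all groups here. The comparison used the untreated arrays of the series, which are 4 of its 10 Affymetrix arrays: 2 from cells transfected with siRNA against p53 (p53i) and 2 from cells given a control siRNA directed at LacZ, a bacterial gene (LacZi). All cells were kept in charcoal-stripped serum. Both untreated duplicates carry the label of biological replicates, and this is the comparison of the series with duplicates on both sides. The other 6 arrays are 1 per siRNA after 8, 20 and 50 h with 100 nM calcitriol (D3 here). They share no array with the untreated comparison and served as separate samples for the same siRNA contrast. The labels name 1 cell line, and no source used here gives the time between transfection and harvest of the untreated cells. The time after transfection may therefore differ between the untreated and the D3 arrays. The siRNA's target was not analysed here, so the depletion of p53 was not checked by its own transcript, and "p53i" is used as the name of the label.

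Wild-type p53 is a transcription factor that activates genes of cell-cycle arrest and apoptosis such as CDKN1A, MDM2 and BAX. Missense mutants of its DNA-binding domain lose most of that activity and often accumulate, and they have been linked to transcription through partner factors such as NF-Y, SREBP and ETS2. Type I interferon signals through JAK kinases to a transcription factor complex that contains IRF9, which binds the interferon-stimulated response element in the promoters of antiviral genes.

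The measured quantity was the MAS5 signal, a scaled fluorescence intensity per probe set, and differences are given as p53i minus LacZi on the scale of log2(signal + 16), where 1 unit is a 2-fold difference. This scale understates the differences of weakly expressed genes. After a filter on low signals, 12022 genes were tested with limma, and a gene was called at an adjusted p under 0.05. The identity of the cells was checked with 11 of 12 SKBR3 markers found on the arrays, whose summed signal was 87625 and 97369 on the LacZi arrays and 101038 and 114719 on the p53i arrays. ERBB2 stood at 12690 and 14376 against 13765 and 16178. ESR1, the oestrogen receptor that this line lacks, stood between 31.2 and 43.0. The 6 marker lists of other cell types had median signals of 17.9 to 45.7. Their summed signals overlapped between the siRNAs for the fibroblast, endothelial, neural and erythroid lists. The leukocyte list summed to 325 and 343 on the LacZi arrays and 290 and 251 on the p53i arrays. The liver list summed to 168 and 227 against 274 and 328, with a median signal of 27.8 and albumin at 2.85 to 7.14 on all 4 arrays. Of its 9 genes, 4 did not overlap. Without a filter, as used for these marker lists, 18.6% of all genes were higher and 21.8% lower without overlap. The count of 4 is therefore near the share of all genes. The part of RNA from other cell types in the results was not tested.

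The duplicates set a wide error. Between the LacZi duplicates 318 genes (2.65%) differed at least 2-fold, and between the p53i duplicates 430 (3.58%) did. Between the siRNA means 197 genes (1.64%) did. This count is not on the same measure, since means of 2 arrays vary less than the single arrays compared within each siRNA. The duplicate differences had an SD across genes of 0.383 for LacZi and 0.448 for p53i. RNA integrity, read as the signal at the 3' end of ACTB over that at its 5' end, was 4.05 and 3.79 on the LacZi arrays and 4.39 and 8.72 on the p53i arrays (exact permutation test, two-sided, p = 0.333, the smallest that 2 against 2 can give). The corresponding GAPDH ratio was 1.14 and 1.09 against 1.16 and 1.42 (exact p = 0.333). The p53i replicate 2 thus had the highest ratio of both. On the D3 arrays the ACTB ratio was 5.05 (8 h), 4.80 (20 h) and 4.60 (50 h) for LacZi and 4.77, 7.11 and 6.12 for p53i, higher for p53i at 20 and 50 h, and over all 10 arrays its exact permutation p was 0.0714. The ratio was thus higher for p53i on both untreated arrays, by far the most on replicate 2, and at 20 and 50 h but not at 8 h. The part of this in any gene's difference was not tested beyond the fits with the ratio as a covariate given below.

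The single gene called in untreated cells was an interferon-stimulated gene. IFI27, which encodes an interferon-induced mitochondrial protein, had signals of 55.8 and 50.1 on the LacZi arrays and 665 and 1451 on the p53i arrays. Both p53i arrays lay far above both LacZi arrays, and the p53i duplicates also stood more than 2-fold apart. IFI27 rose by 3.86 ± 0.33 (SE, n = 2 per group), a 14.5-fold difference on the offset scale (limma adjusted p = 0.0162). It was 1 of 12022 genes called, or 0.00832%. In such bulk RNA, more expressing cells and more transcript per cell cannot be told apart. The D3 arrays gave a difference of 4.59 ± 0.31 (limma adjusted p = 0.000198). IFI27 itself did not pass a filter on LacZi signals alone. Without the signal filter (adjusted p = 0.232), with the mean of all probe sets per gene (0.0916) or without the intensity trend in limma (0.435) the untreated difference of 3.86 was not called. With the ACTB ratio as a covariate and the spread taken from all 10 arrays it was 2.90 and called (limma adjusted p = 0.0435).

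Below that threshold lay a broader set of differences. At an unadjusted limma p under 0.05 there were 1359 genes (11.3%), of which 754 were higher in p53i cells (6.27%) and 605 lower (5.03%). With each array centred on its median over the genes tested, this split became 617 higher and 775 lower. Both p53i arrays lay above both LacZi arrays for 2729 genes (22.7%) and below both for 2563 (21.3%). Differences of at least 2-fold without overlap numbered 81 higher (0.674%) and 106 lower (0.882%). These counts are the background against which the gene groups are read below.

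The 15 largest positive differences, taken by a rule that required no overlap between the siRNAs, an unadjusted p under 0.05 and a mean signal of at least 100 in the higher group, held 9 members of the list of interferon effectors, with the interferon regulatory factors IRF7 and IRF9. They were IFI27, IFIT1, XAF1, ISG15, MX1, OAS1, IFI6, IRF9, MAMDC4, BST2, IRF7, TMEM52B, TAGLN, OAS3 and RIPOR3. The rule fixed that all lie on the same side in untreated cells. Their promoters are shown first, since the response element of interferon has a known sequence. The core, written here as GAAA, any 2 bases and GAAA, was searched on both strands (TTTC, any 2 bases and TTTC on the other) in RefSeq windows of 300 bases, from 250 before to 50 after each annotated start (GRCh38.p14). It occurred in 1255 of all 35114 windows (3.57%) and for 360 of the 9762 tested genes with a window (3.69%). Of the 15 genes, 12 had a window and 7 held the core: IFI27, IFIT1, ISG15, MX1, IFI6, BST2 and OAS3. Of the 15 largest negative differences, 12 had a window and 0 held it. For 12 genes this is near the 3.69% of all tested genes, so it is no trait of the negative set. The 250 bases before the start are printed 5' to 3' on the gene's strand for 4 genes with the core. ANXA1, of the negative set, is printed as an example of a gene without it. Capitals mark matches, and in ISG15 the matches overlap each other. The windows are chr14:94110486-94110735 (plus strand) for IFI27, chr1:1013247-1013496 (plus strand) for ISG15, chr10:89392373-89392622 (plus strand) for IFIT1, chr1:27672193-27672442 (minus strand) for IFI6 and chr9:73151615-73151864 (plus strand) for ANXA1.
IFI27: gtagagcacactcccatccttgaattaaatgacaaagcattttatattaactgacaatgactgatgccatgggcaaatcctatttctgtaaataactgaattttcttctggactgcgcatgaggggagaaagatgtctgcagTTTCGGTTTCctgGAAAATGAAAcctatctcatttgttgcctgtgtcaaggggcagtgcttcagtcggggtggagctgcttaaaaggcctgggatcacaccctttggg
ISG15: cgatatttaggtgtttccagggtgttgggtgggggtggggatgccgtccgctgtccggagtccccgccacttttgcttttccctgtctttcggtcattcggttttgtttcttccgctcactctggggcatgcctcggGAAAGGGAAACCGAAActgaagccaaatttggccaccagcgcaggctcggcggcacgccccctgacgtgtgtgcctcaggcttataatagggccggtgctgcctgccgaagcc
IFIT1: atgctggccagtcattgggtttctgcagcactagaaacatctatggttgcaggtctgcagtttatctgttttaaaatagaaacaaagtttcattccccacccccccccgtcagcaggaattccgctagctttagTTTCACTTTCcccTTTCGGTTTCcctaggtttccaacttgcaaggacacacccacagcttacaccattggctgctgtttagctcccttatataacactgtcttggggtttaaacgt
IFI6: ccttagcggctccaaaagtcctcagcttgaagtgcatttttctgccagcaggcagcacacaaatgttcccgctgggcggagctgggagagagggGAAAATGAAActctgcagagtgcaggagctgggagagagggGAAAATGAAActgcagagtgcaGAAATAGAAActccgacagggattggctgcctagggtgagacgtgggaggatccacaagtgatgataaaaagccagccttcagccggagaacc
ANXA1: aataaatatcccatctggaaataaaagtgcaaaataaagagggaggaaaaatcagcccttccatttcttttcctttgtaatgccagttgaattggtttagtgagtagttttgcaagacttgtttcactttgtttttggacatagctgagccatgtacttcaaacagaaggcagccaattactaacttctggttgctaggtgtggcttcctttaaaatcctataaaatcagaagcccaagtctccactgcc
In IFI27 the first match began 108 bases before the start, in ISG15 113, in IFIT1 116 and in IFI6, which held 3 matches, 156. A match describes the letters only.

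Among the interferon effectors with such a core, ISG15, a ubiquitin-like protein that is conjugated to other proteins, read 337 and 320 on the LacZi arrays and 1486 and 3030 on the p53i arrays. The groups were clearly apart, with close LacZi duplicates. The difference was 2.63 ± 0.29 (limma adjusted p = 0.0602), and the same contrast on the D3 arrays gave 2.76 ± 0.18 (adjusted p = 0.000153). IFI6, an interferon-induced mitochondrial protein, stood at 82.5 and 123 against 325 and 509, a difference of 1.85 ± 0.28. BST2 (tetherin), which holds budding virions at the cell surface, stood at 101 and 76.1 against 259 and 344, a difference of 1.60 ± 0.25. The p53i arrays of both genes lay more than 2-fold above every LacZi array.

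IFIT1, which binds viral RNA, and XAF1, a XIAP-associated factor, were at background in LacZi cells. IFIT1 read 1.00 and 29.9 on the LacZi arrays and 154 and 277 on the p53i arrays. XAF1 read 5.02 and 1.92 against 105 and 163. Signals this low have no reliable order, so the 8.01-fold difference of IFIT1 and the 7.59-fold difference of XAF1 (SE of 0.49 and 0.39 in log2) depend on the offset. Without an offset another XAF1 probe set has the highest mean, and that one was lower in p53i cells by 0.35 (limma adjusted p = 0.875). The GTPase MX1 was also weak in LacZi cells, at 17.7 and 30.8 against 84.6 and 207, a difference of 1.91 ± 0.43.

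The oligoadenylate synthetases make the second messenger that activates RNase L on double-stranded RNA. OAS1 stood at 106 and 73.9 on the LacZi arrays and at 354 and 386 on the p53i arrays, a difference of 1.88 ± 0.24 (limma adjusted p = 0.0826). OAS3 stood at 102 and 85.8 against 314 and 257, a difference of 1.45 ± 0.23, with 0.77 as the mean of its probe sets. Their p53i duplicates were close together, unlike those of IFI27 and ISG15.

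The regulators of the response were fewer than its effectors. IRF9, the DNA-binding subunit of the complex that type I interferon activates, had 298 and 197 on the LacZi arrays and 845 and 843 on the p53i arrays. The difference was 1.73 ± 0.22 (limma adjusted p = 0.0826). IRF7, which drives interferon genes and is itself interferon-inducible, had 194 and 236 against 562 and 808, a difference of 1.59 ± 0.22 (limma adjusted p = 0.118). Both were apart from the controls on every array, by about 3-fold in the means. In the D3 contrast IRF9 differed by 1.51 and IRF7 by 0.95, both called there (limma adjusted p = 0.000597 and 0.0307).

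The remaining genes of this set are on none of the interferon lists. RIPOR3 had 196 and 183 on the LacZi arrays against 520 and 552, a difference of 1.43 ± 0.18 with close duplicates on both sides, and of 0.61 as the mean of its probe sets. TAGLN, the actin-binding transgelin, had 84.2 and 68.2 against 188 and 296 at its strongest probe set, a difference of 1.46 ± 0.28. Its probe sets disagreed: another was lower without overlap, at 102 and 118 against 66.6 and 44.2 (-0.83), the third overlapped (0.49), and their mean was 0.37. TMEM52B, a membrane protein, had 35.1 and 18.4 against 129 and 91.0. MAMDC4 had 48.6 and 31.1 against 120 and 222, a difference of 1.71 ± 0.35. At the probe set used, all 4 lay at least 2-fold above the controls in their means.

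**Figure D1:**
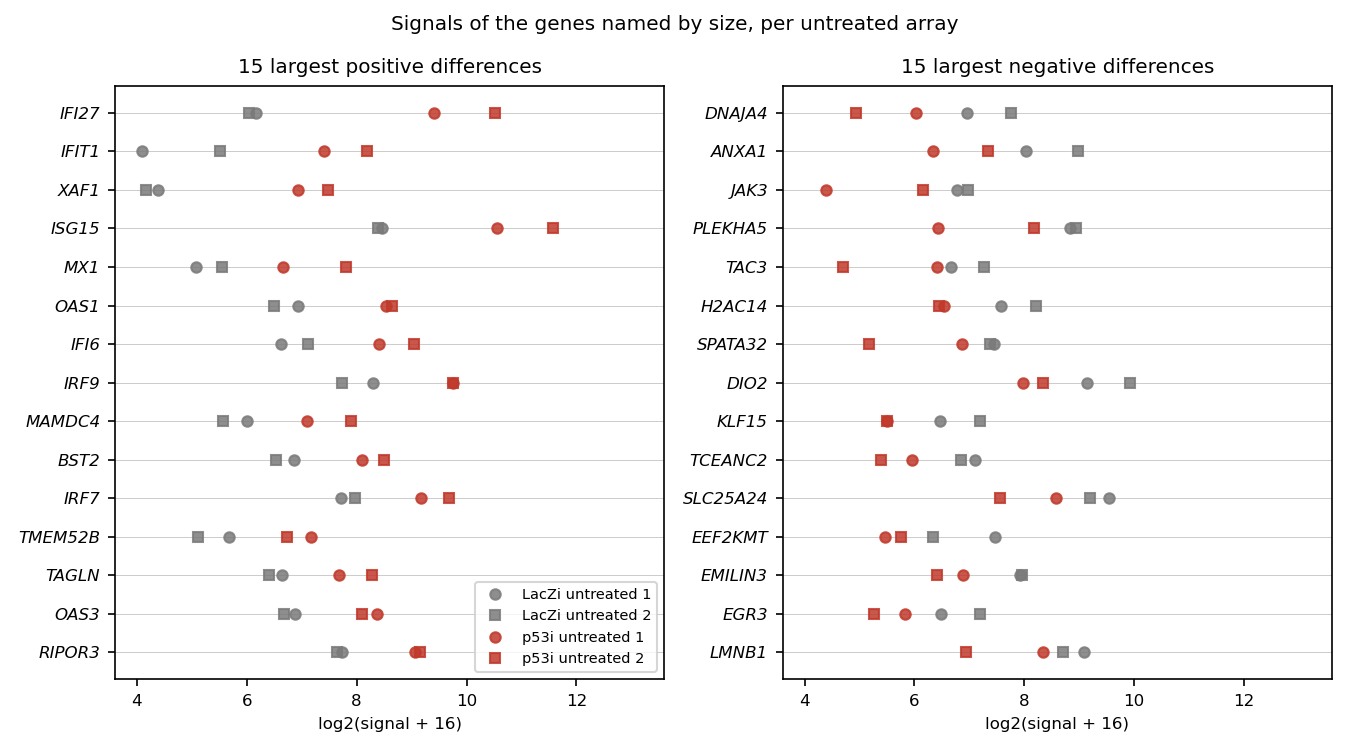
Each row is a gene named by size, and each point is the signal of 1 untreated array as log2(signal + 16), in grey for LacZi and red for p53i, with circles for replicate 1 and squares for replicate 2. The groups do not overlap, which the rule required, and the LacZi points of IFIT1 and XAF1 lie at the low end of the scale.

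The D3 arrays gave the same contrast on separate arrays, 1 per siRNA and time, whose ACTB ratios were also higher for p53i at 20 and 50 h. The part of that ratio in the D3 contrast was not tested. Over all genes the sign agreed for 65.4%, and the correlation across genes was 0.42, a description over genes that share libraries and are no replicates. With time as a block 600 genes were called there (4.99%), 309 higher (2.57%) and 291 lower (2.42%). Of the 15 largest positive untreated differences, 14 had the same sign at all 3 D3 times, and 12 were called. The signal filter and the choice of probe sets used the D3 arrays too. IFI27, IFIT1, XAF1 and MX1 did not pass a filter on the LacZi arrays alone, so the same sign of these genes is partly set by the selection. The 3 not called were MAMDC4, TMEM52B and TAGLN. MAMDC4 was lower by 0.46 on the D3 arrays, where LacZi signals were 126 to 168. TAGLN was higher by 0.38 there, against 1.46 in untreated cells. TMEM52B was higher by 1.10 (limma adjusted p = 0.103). The difference between the untreated and D3 contrasts, tested as an interaction, called no gene (0%). At an unadjusted p under 0.05 the interaction gave 645 genes (5.37%), MAMDC4 and TAGLN among them, each with a limma adjusted p of 0.893.

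**Figure D2:**
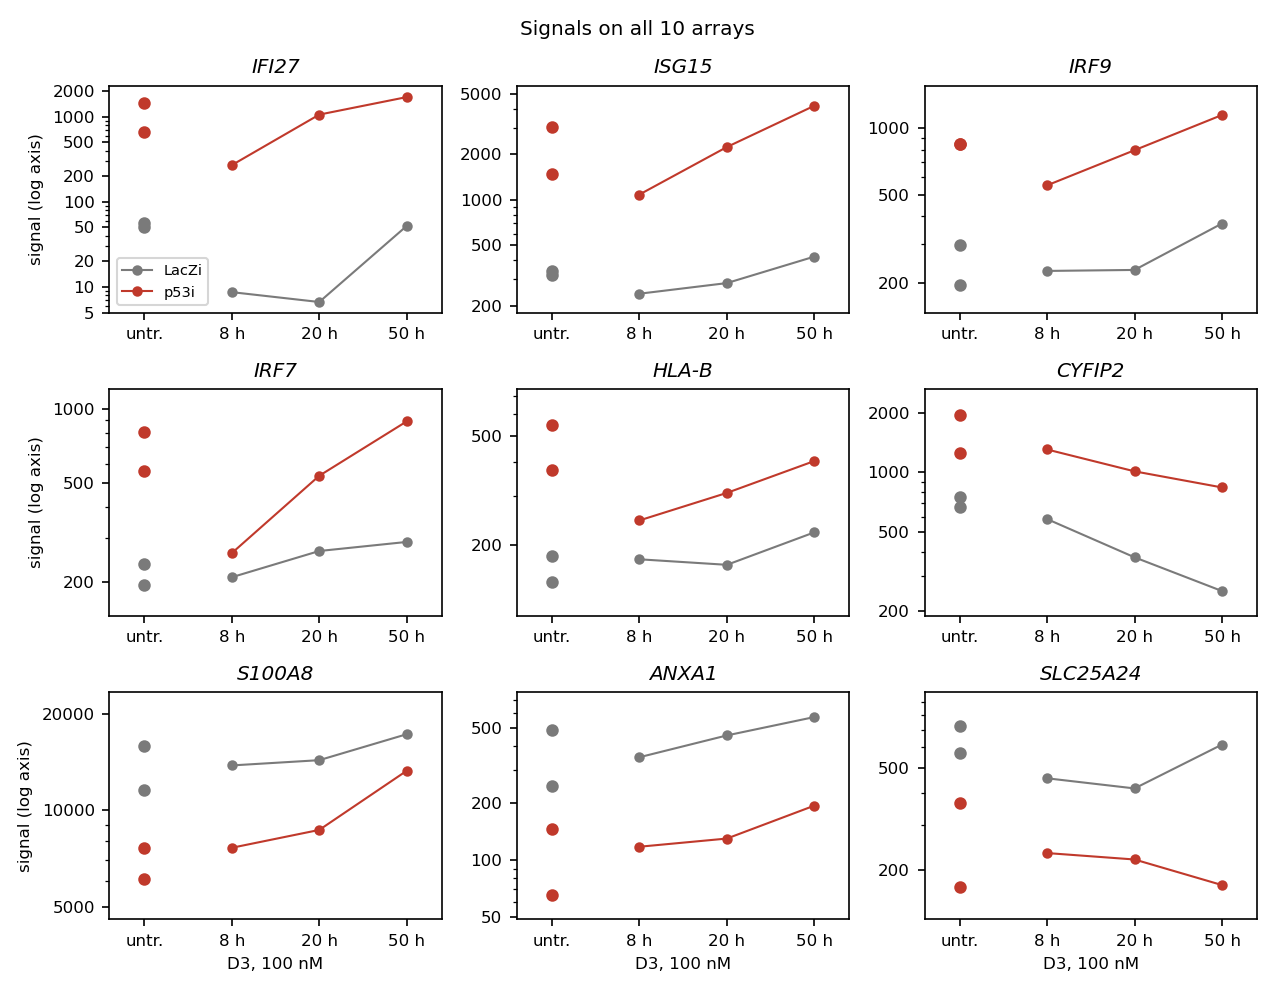
Signals of 9 genes on all 10 arrays, on log axes, with the untreated duplicates at the left and the D3 time points joined by lines, grey for LacZi and red for p53i. The p53i points lie above the LacZi points of the same D3 time for IFI27, ISG15, IRF9, IRF7, HLA-B and CYFIP2, and below them for S100A8, ANXA1 and SLC25A24.

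The 15 largest negative differences were DNAJA4, ANXA1, JAK3, PLEKHA5, TAC3, H2AC14, SPATA32, DIO2, KLF15, TCEANC2, SLC25A24, EEF2KMT, EMILIN3, EGR3 and LMNB1. They ranged from -1.88 to -1.25, and none was called. On the D3 arrays 10 had the same sign, 6 of them at all 3 times, and 4 were called: ANXA1, DIO2, SLC25A24 and EGR3. Their median difference was -1.38 untreated and -0.14 on the D3 arrays, whereas for the 15 positive ones the medians were 1.73 and 1.95. The positive ones include IFI27, IFIT1, XAF1 and MX1, which did not pass a filter on the LacZi arrays alone. Among all genes that were at least 2-fold different without overlap, 75 of the 81 higher ones and 70 of the 106 lower ones had the same sign on the D3 arrays, and 31 and 10 were called in that direction. The difference between these shares was not tested.

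ANXA1, a phospholipid-binding annexin that restrains inflammation, had signals of 246 and 485 on the LacZi arrays and 64.8 and 146 on the p53i arrays. The groups were apart, but the duplicates of each siRNA differed about 2-fold. The difference was -1.66 ± 0.39 (limma adjusted p = 0.292), and on the D3 arrays it was -1.55 ± 0.13 (adjusted p = 0.000597). DIO2, the deiodinase that activates thyroid hormone, had 549 and 956 against 235 and 307, a difference of -1.38 ± 0.27 at its strongest probe set. The next strongest overlapped, at 207 and 379 against 154 and 373 (-0.21), and the mean of its 5 probe sets was -0.54. On the D3 arrays DIO2 was lower by 0.43 (limma adjusted p = 0.0488), with -0.55 (8 h), -0.61 (20 h) and -0.14 (50 h). SLC25A24, a mitochondrial carrier of adenine nucleotides and phosphate, had 727 and 569 against 365 and 173, a difference of -1.30 ± 0.31. EGR3, an immediate early transcription factor, had 73.1 and 131 against 41.1 and 22.5, a difference of -1.29 ± 0.38 that was -1.25 on the D3 arrays.

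Several of the remaining negative differences rested largely on 1 array. JAK3, a cytokine receptor kinase, had 94.2 and 110 on the LacZi arrays and 4.98 and 55.1 on the p53i arrays. PLEKHA5 had 441 and 476 against 70.5 and 273, with a mean difference over its probe sets of -0.67. TAC3, the precursor of neurokinin B, had 85.8 and 137 against 68.8 and 10.1. In these genes the p53i duplicates were further apart than the higher p53i array was from the controls, and on the D3 arrays their differences were 0.16, -0.10 and -0.05. With probe sets chosen over the 4 untreated arrays, JAK3 was represented by another probe set and was higher by 0.16.

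DNAJA4, a co-chaperone of HSP70, had the largest negative difference, with 109 and 201 on the LacZi arrays and 48.9 and 14.6 on the p53i arrays. LMNB1, a subunit of the nuclear lamina, had 525 and 400 against 306 and 107, a difference of -1.25 ± 0.39, while at all 3 D3 times it was higher in p53i cells, by 0.78 (8 h), 0.08 (20 h) and 0.01 (50 h). The histone gene H2AC14 had 174 and 281 against 76.7 and 70.9 (-1.40 ± 0.28), but its probe set may also read other histone copies. EMILIN3, an extracellular matrix glycoprotein, had close LacZi duplicates of 227 and 232 against 102 and 69.1 (-1.29 ± 0.25), and -0.19 on the D3 arrays. KLF15, SPATA32, TCEANC2 and EEF2KMT had mean signals of 101 to 154 in LacZi cells and 29.2 to 60.5 in p53i cells. With the mean of its probe sets KLF15 stood at -0.37 and SPATA32 at -0.91. Of the 4, SPATA32, TCEANC2 and EEF2KMT were higher in p53i cells on the D3 arrays, by 0.75, 0.58 and 0.93, none called there.

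The sign on the D3 arrays was also counted by signal strength. Among genes with no overlap and an unadjusted p under 0.05, 90.7% of the 494 in the highest 25% by mean signal had the same sign on the D3 arrays. In the lowest 25%, 67.6% of 170 did. The difference between these shares was not tested, and members of 1 array share its errors.

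**Figure D3:**
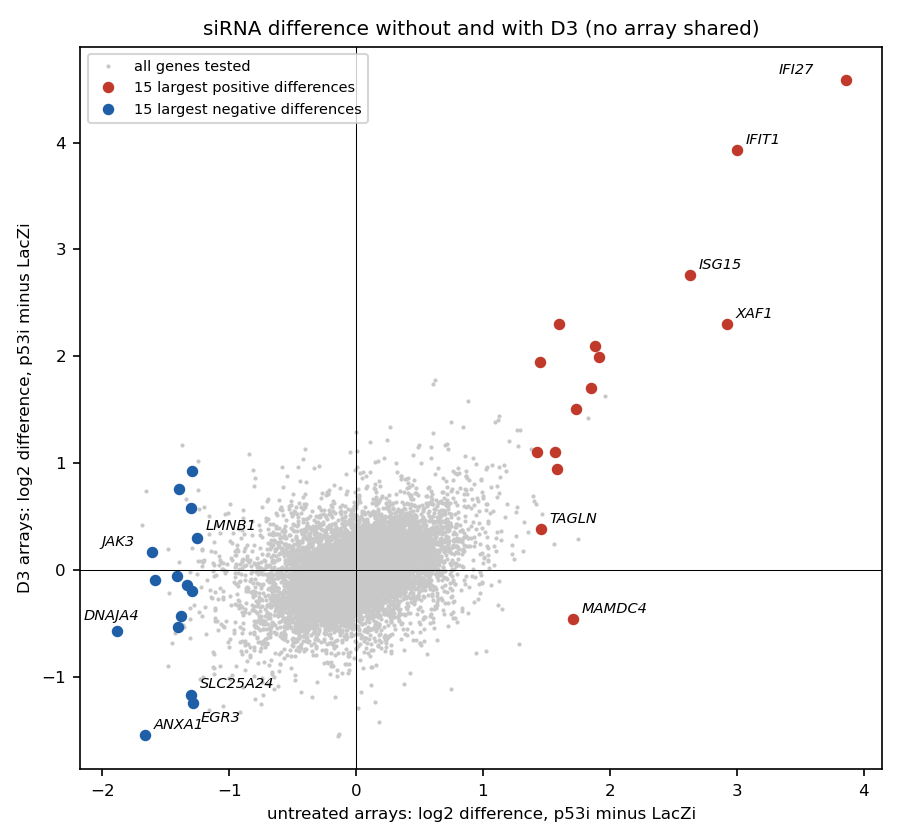
Each point is a gene, with its log2 difference (p53i minus LacZi) in untreated cells on the horizontal axis and on the D3 arrays on the vertical axis. The 15 largest positive untreated differences (red) lie above 0 on both axes except MAMDC4, while the 15 largest negative ones (blue) spread from -1.55 to 0.93 on the vertical axis.

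Genes were also described by pathway list. Of 50 interferon effectors, 38 passed the signal filter, and their median difference was 0.82, against 0.01 for all genes tested. Of the 38, 28 were higher on both p53i arrays than on both LacZi arrays (background 22.7%), 0 were lower on both (background 21.3%) and 10 overlapped. The filter used all 10 arrays, so that members weak in LacZi cells, such as IFIT1 and XAF1, could pass through their p53i signals alone and had to differ. With the filter and the probe set chosen on the 5 LacZi arrays, an alternative added after the data were seen, 29 effectors passed, without IFI27, IFIT1, XAF1 and MX1 among others. Of these, 21 were higher without overlap (21.7% of all genes under that filter) and 0 lower (22.6%), with a median of 0.71. With no filter, 32 of all 50 were higher without overlap (18.6% of all genes) and 1 lower (21.8%), with a median of 0.70. At an unadjusted p under 0.05, 23 of the 38 were higher (6.27% of all genes) and 0 lower (5.03%). On the D3 arrays the median of the 38 was 0.96, and 20 were called, all higher (2.57% of all genes). The 38 include the members that did not pass on the LacZi arrays, so these counts are partly set by the selection. Beyond the genes above, and named here after their values were seen, SP110, a nuclear body protein, had 311 and 173 on the LacZi arrays against 543 and 736 (1.38 ± 0.28). IFITM1, which blocks viral entry, had 533 and 745 against 1155 and 2133 (1.30 ± 0.28). DTX3L, a ubiquitin ligase, had 142 and 88.9 against 294 and 291 (1.26 ± 0.25), and the ADP-ribosyltransferase PARP12 had 241 and 177 against 413 and 538 (1.13 ± 0.23). LGALS3BP, an abundant secreted glycoprotein, had 8377 and 7041 against 11837 and 13093, a small difference (0.70 ± 0.13) in a strong signal.

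Not every effector followed. IFIT3, a neighbour of IFIT1 in sequence and function and also named after its values were seen, had 55.1 and 11.7 on the LacZi arrays and 40.0 and 8.06 on the p53i arrays. Its arrays overlapped, and its sign turned with the probe sets averaged, with the ACTB covariate, and with either LacZi replicate 1 or p53i replicate 2 left out. The promoter core was present for 16 of the 24 non-overlapping effectors with a window (66.7%) and for 7 of the 8 overlapping ones (87.5%). In all, 23 of 32 effectors with a window held it (71.9%).

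With the spread estimated from all 10 arrays instead of 4, 40 genes were called in the untreated comparison, 25 higher (0.208%) and 15 lower (0.125%). When the ACTB ratio was added as a covariate to this fit, 2 genes were called, IFI27 and ISG15, both higher, and the other 38 lost their calls. The genes below are therefore given as those of the fit without the ratio. Among the 25 were 7 interferon effectors, IFI27, IFIT1, XAF1, ISG15, OAS1, IFI6 and LGALS3BP, with IRF9, IRF7 and HLA-B. The other genes of the 40 are mostly abundant, and those named here beyond the rule were chosen after their values were seen. SLC40A1 (ferroportin, the iron exporter) had 501 and 531 on the LacZi arrays against 990 and 1609 (1.27). The peptide transporter SLC15A1 had 239 and 182 against 473 and 479 (1.13). The actin-binding proteins ACTN4 and TPM1 were higher by 1.04 and 0.75, the keratin KRT4 by 0.94, and each lay outside the range of the control duplicates. Among those lower, the N-terminal acetyltransferase NAA50 had 1839 and 1682 against 1040 and 826 (-0.91), the scaffold protein AHNAK had 1911 and 2048 against 1216 and 1089 (-0.77, but 0.14 as the mean of its probe sets), and the GTPase CDC42 had 2544 and 2005 against 1222 and 798 (-1.18). IGFBP5, an IGF-binding protein, was lower by 0.67. On the D3 arrays 38 of the 40 had the same sign and 34 were called, but the spread that called the 40 includes those arrays. Not called there were TRPV6, TAGLN, LEPROT, MAP3K12, PNO1 and DHX36. MAP3K12, a kinase upstream of JNK, stood at 429 and 546 against 218 and 184 untreated (-1.21) and at 0.07 on the D3 arrays.

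Interferon signalling itself showed no common direction. Of 18 tested members, 5 were higher without overlap (27.8%, against 22.7% of all genes) and 4 lower (22.2%, against 21.3%). Both shares were near those of all genes, and the list's median was 0.09. IRF9 and IRF7 were the members at an unadjusted p under 0.05. SOCS3, the feedback inhibitor of JAK signalling, had 143 and 140 on the LacZi arrays against 187 and 212 (0.45 ± 0.22), and STAT3 had 2883 and 2618 against 3852 and 3058 (0.32 ± 0.15). IFNGR1, a chain of the interferon gamma receptor, had 1233 and 1041 against 921 and 827 (-0.37 ± 0.16), and was also lower on the D3 arrays (-0.47, limma adjusted p = 0.0304). Of 15 interferon ligands, 1 passed the filter, IFNL1, with overlapping signals near background. These values are of transcripts only.

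The sensors of foreign RNA included members that are interferon-inducible themselves. Of 12 tested, 6 were higher without overlap (50%, against 22.7% of all genes) and 1 lower (8.33%, against 21.3%). Their median was 0.28. RIGI, the helicase that senses RNA with a 5' triphosphate, had 122 and 128 on the LacZi arrays against 224 and 291 (0.94 ± 0.23). IFIH1 (MDA5), the sensor of long double-stranded RNA, had 256 and 185 against 354 and 386 (0.72 ± 0.22), and the RNA-editing deaminase ADAR had 3743 and 3597 against 4638 and 5546 (0.47 ± 0.14). All 3 lay outside the range of the controls and none was called. EIF2AK2 (PKR), the kinase that halts translation, overlapped, with 704 and 519 against 1003 and 649.

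For antigen presentation by MHC class I, 7 of 17 tested members were higher without overlap (41.2%, against 22.7% of all genes). Lower without overlap were 2 (11.8%, against 21.3%), and the median was 0.20. HLA-B had 146 and 181 on the LacZi arrays against 375 and 548 (1.39 ± 0.24; limma adjusted p = 0.233, 0.0353 with the spread from 10 arrays, and 0.293 in that fit with the ACTB ratio). The peptide transporter TAP1 had 252 and 181 against 435 and 401 (0.92 ± 0.21), and the chaperone CALR had 1953 and 1669 against 2598 and 3306 (0.69 ± 0.17). HLA-C had 406 and 398 against 478 and 551 at its strongest probe set (0.34 ± 0.18), and stood at 1.02 as the mean of its 4 probe sets. Probe sets for HLA genes can read near-identical family members, so the split between HLA-B and HLA-C is uncertain.

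In the machinery of RNA interference, which every siRNA uses, 4 of 13 tested members were higher without overlap (30.8%, against 22.7% of all genes). Lower without overlap were 2 (15.4%, against 21.3%). AGO2, the argonaute that cleaves targets, had 372 and 471 on the LacZi arrays against 256 and 192 (-0.87 ± 0.22), while AGO4 had 200 and 148 against 347 and 292 (0.83 ± 0.22). The scaffold TNRC6C had 289 and 309 against 460 and 557 (0.73 ± 0.19). On the D3 arrays AGO2 stood at 0.04, AGO4 at 0.37 and TNRC6C at 0.53 (limma adjusted p = 0.0416). The interaction of AGO2 had a p of 0.00887 before and 0.893 after adjustment.

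Targets of wild-type p53 showed no common direction. Of 31 tested, 4 were higher without overlap and 5 lower, shares below the background, and the median was -0.05. CDKN1A, the p21 inhibitor, had 191 and 255 on the LacZi arrays against 151 and 241, and MDM2, the ubiquitin ligase of p53, had 811 and 685 against 639 and 635 (-0.22 ± 0.17). CDKN1A overlapped, and MDM2 was lower on both arrays by less than the distance between the LacZi duplicates. CYFIP2, which regulates actin, stood out with 753 and 670 against 1253 and 1945 (1.12 ± 0.21; limma adjusted p = 0.233), and at 1.40 on the D3 arrays (adjusted p = 0.000597). The apoptosis effector BAX had 128 and 98.2 against 57.1 and 64.8 (-0.74 ± 0.29), and PMAIP1 (NOXA) had 98.2 and 83.2 against 51.2 and 47.6 (-0.70 ± 0.30). Under D3, BAX stood at -0.04 and PMAIP1 at -0.33.

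Of genes reported as dependent on mutant p53, more were lower than higher without overlap. Of 20 tested, 9 were lower without overlap (background 21.3%) and 4 higher (background 22.7%), with a median of -0.19 untreated and -0.20 on the D3 arrays. EGR1, an immediate early factor, had 11514 and 10836 on the LacZi arrays against 7997 and 7062 (-0.57 ± 0.13) at its strongest probe set. Its other strong probe sets overlapped, at 3444 and 3945 against 3715 and 3658 (a difference of 0.00) and at 2220 and 1706 against 1774 and 1544 (-0.23), and the mean of the 3 was -0.27. EGR1 differed by -0.13 on the D3 arrays (limma adjusted p = 0.576), with 0.23 at 50 h. The replicative helicase subunit MCM6 had 2109 and 1855 against 1382 and 1222 (-0.60 ± 0.15), with -0.54 on the D3 arrays (limma adjusted p = 0.00983). For MCM6 the groups were well apart in a strong signal. The counts of this list take no account of the direction in which each gene was reported to depend on mutant p53. Among its members higher in p53i cells, CCNG2, an unconventional cyclin of resting cells, had 1297 and 1106 against 1728 and 1896 (0.59 ± 0.15). IGF1R had 199 and 225 against 374 and 310 (0.64 ± 0.20). As the mean of their probe sets CCNG2 and IGF1R stood at 0.09 and 0.07. On the D3 arrays IGF1R stood at 0.01 (limma adjusted p = 0.984). The interaction had an unadjusted p under 0.05 for 6 of the 20 (5.37% of all genes), EGR1 and IGF1R among them, and for 0 after adjustment. Among 15 tested partner factors of mutant p53, 3 were higher without overlap (20%, against 22.7% of all genes) and 0 lower (against 21.3%). The share higher was thus not above that of all genes. The 3 were ETS2 (0.54 ± 0.19), SREBF2 (0.63 ± 0.27) and SREBF1 (0.39 ± 0.18).

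The mevalonate pathway, whose genes SREBF2 drives, had 4 of 17 tested members higher without overlap and 1 lower, with a median of 0.19. The share higher, 23.5%, is near the 22.7% of all genes. MSMO1, a sterol demethylase, had 1012 and 1130 on the LacZi arrays against 1401 and 2180 (0.70 ± 0.21), and mevalonate kinase MVK had 537 and 603 against 697 and 1048 (0.57 ± 0.21). In both the higher array was p53i replicate 2, the array with the highest ACTB ratio. Both were called on the D3 arrays, at 0.55 and 0.46 (limma adjusted p = 0.0191 and 0.036). INSIG1, which restrains SREBP, was higher by 0.53 untreated, and on the D3 arrays its limma adjusted p was 0.999.

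Genes of DNA synthesis included many with slightly lower signals in p53i cells. Of 36 tested G1/S genes, 16 were lower without overlap (44.4%, against 21.3% of all genes) and 2 higher (5.56%, against 22.7%). The list's median was -0.16. Beside MCM6, the polymerase subunit POLE2 had 393 and 374 on the LacZi arrays against 278 and 260 (-0.49 ± 0.18), and the clamp loader subunit RFC3 had 1012 and 976 against 788 and 708 (-0.40 ± 0.16). MCM5 went the other way, with 768 and 733 against 874 and 1212 (0.45 ± 0.19). The median of the G1/S list on the D3 arrays was -0.04. Of 37 G2/M genes, 7 were lower (18.9%) and 5 higher (13.5%) without overlap, shares below those of all genes, with a median of -0.09. CDK1, the mitotic kinase, had 4811 and 3858 against 3466 and 3271 (-0.35 ± 0.15), and its subunit CKS1B had 2733 and 2396 against 2155 and 1678 (-0.43 ± 0.16). Whether the lists differ from each other was not tested.

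Luminal epithelial genes define the identity of SKBR3 cells. Of 26 tested, 8 were higher without overlap (30.8%, against 22.7% of all genes) and 1 was lower (3.85%, against 21.3%). The other 17 overlapped, and none was called. Their median was 0.19, and 0.31 on the D3 arrays, where 7 were called higher (2.57% of all genes). Among 11 tested endogenous control genes, meant to be stable, 5 were higher without overlap (45.5%, against 22.7% of all genes). Of these controls 1 was lower (9.09%, against 21.3%), and their median was 0.11. The share higher was thus larger for the control genes than for the luminal genes. KRT8 had 9728 and 10822 on the LacZi arrays against 12772 and 14330 (0.40 ± 0.13), and XBP1, a factor of secretory cells, had 4056 and 3534 against 5225 and 4575 (0.37 ± 0.14). GATA3, a luminal transcription factor, differed by 0.43 ± 0.17. The exception was CLDN7, a tight-junction claudin, with 2801 and 2595 against 2207 and 736 (-1.07 ± 0.40), where p53i replicate 2 stood alone. On the HER2 amplicon, 6 of 16 tested genes were higher without overlap (37.5%, against 22.7% of all genes). Lower without overlap were 2 (12.5%, against 21.3%). ORMDL3, a regulator of sphingolipid synthesis, had 1612 and 1180 against 2233 and 2416 (0.75 ± 0.18), PGAP3 had 1789 and 1829 against 2441 and 3268 (0.64 ± 0.17) and GRB7, an adaptor of receptor kinases, had 1841 and 2413 against 2925 and 3071 (0.50 ± 0.16). ERBB2 itself overlapped (0.14 ± 0.13).

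The calcium-binding S100 proteins and annexins included several strongly expressed genes with lower signals in p53i cells. Of 23 tested, 7 were lower without overlap (30.4%, against 21.3% of all genes) and 4 higher (17.4%, against 22.7%). Of these, 6 and 2 had an unadjusted p under 0.05 (5.03% lower and 6.27% higher among all genes). The list's median was 0.04 untreated and 0.05 on the D3 arrays, with 13 members above 0 and 10 below 0 untreated. S100A8 and S100A9 form calprotectin. S100A8 had 11598 and 15924 on the LacZi arrays against 6106 and 7627 (-0.99 ± 0.18; limma adjusted p = 0.233, 0.0406 with the spread from 10 arrays, and 0.222 in that fit with the ACTB ratio), and S100A9 had 6408 and 10396 against 4041 and 4907 (-0.87 ± 0.22). S100A7 (psoriasin), named after its values were seen, had widely spread duplicates, at 767 and 1978 against 385 and 764 (-1.16 ± 0.43), and was called on the D3 arrays (-1.31, limma adjusted p = 0.000153). S100A3 had 109 and 106 against 38.0 and 36.4 (-1.22 ± 0.30). ANXA3 ran opposite to ANXA1, with 192 and 236 against 371 and 344 (0.70 ± 0.20), and with 1.17 on the D3 arrays (adjusted p = 0.0102).

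In the immediate early and ERK feedback list, 5 of 29 were higher without overlap (17.2%, against 22.7% of all genes). Lower without overlap were 6 (20.7%, against 21.3%), so neither share was above that of all genes. FOSB had 864 and 846 on the LacZi arrays against 1140 and 1744 (0.71 ± 0.21), JUND had 3211 and 2879 against 4085 and 4460 (0.49 ± 0.13) and KLF6 had 2044 and 2029 against 2634 and 3128 (0.49 ± 0.14), while EGR1, at its strongest probe set, and EGR3 were lower. MYC overlapped, with 1454 and 2486 against 1225 and 1544 (-0.46 ± 0.24), and was called lower on the D3 arrays (-0.57, limma adjusted p = 0.00549). The NF-kB list had 4 higher and 4 lower of 15 (26.7% each, against 22.7% and 21.3% of all genes). The inhibitor NFKBIA stood at 2884 and 2488 against 3518 and 3392 (0.36 ± 0.14) and the subunit NFKB1 at 371 and 357 against 291 and 243 (-0.43 ± 0.19).

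Of 27 tested BCL2 family members and caspases, 8 were higher without overlap (29.6%, against 22.7% of all genes) and 10 lower (37.0%, against 21.3%). Cytochrome c (CYCS), which triggers caspase activation once released from mitochondria, had 12746 and 13826 on the LacZi arrays against 10349 and 9988 (-0.38 ± 0.12). The survival factor MCL1 had 5258 and 4640 against 6600 and 6579 (0.41 ± 0.13), and CASP2 had 929 and 1030 against 1204 and 1581 (0.49 ± 0.18). For MCL1 and CASP2, the mean over all probe sets of the gene had the opposite sign. The unfolded protein list had 4 of 23 higher and 4 lower (17.4% each), shares below those of all genes. The NRF2 list had 3 of 19 higher (15.8%, against 22.7% of all genes) and 8 lower (42.1%, against 21.3%). It was led by SRXN1, which repairs oxidised peroxiredoxins, with 1633 and 1747 against 1231 and 1313 (-0.41 ± 0.14).

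The genes of the vitamin D system showed no common direction before any D3 was added. Of 11 tested, 4 were higher (36.4%, against 22.7% of all genes) and 2 lower without overlap (18.2%, against 21.3%), with a median of 0.02 and none called. VDR, the receptor, overlapped with 762 and 753 on the LacZi arrays against 698 and 811 (-0.01 ± 0.16). CYP24A1, which degrades calcitriol and is strongly inducible by it, was near background with 34.9 and 40.0 against 34.5 and 23.7. TRPV6, a calcium channel of vitamin D target tissues, had 176 and 122 against 296 and 313 (0.98 ± 0.23; limma adjusted p = 0.292, 0.0474 with the spread from 10 arrays, and 0.320 in that fit with the ACTB ratio), and 0.24 on the D3 arrays. With the mean of its probe sets TRPV6 stood at 0.23. CYP27B1, which makes calcitriol, was weak but apart, with 42.9 and 27.9 against 70.3 and 91.4 (0.92 ± 0.34). The coactivator NCOA1 had 355 and 343 against 216 and 273 (-0.50 ± 0.20), and RXRB, a partner of VDR, had 264 and 279 against 465 and 321 (0.49 ± 0.22).

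Many of these differences depended on the probe set that represents a gene. Of 73 genes selected by the naming rules or described here that have more than 1 probe set, the mean of the probe sets was smaller by over 1.5 times for 35, larger for 3 and of the opposite sign for 8. Of those called with the spread from 10 arrays, HLA-B stood at 0.75 with that mean, SLC15A1 at 0.51, TPM1 at 0.36, CDC42 at -0.72, IGFBP5 at -0.31 and MAP3K12 at -0.22. In the lists, AGO4 stood at 0.35, TNRC6C at 0.13, SREBF2 at 0.15, ETS2 at 0.07, MVK at 0.33, ORMDL3 at 0.35, XBP1 at 0.21, KLF6 at 0.32, STAT3 at 0.18, BAX at -0.48, PMAIP1 at -0.38, CYCS at -0.24 and NCOA1 at -0.29. JUND and RXRB turned lower and MDM2 higher.

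The ACTB ratio as a covariate, with the spread from 10 arrays, made 27 of 122 such genes smaller by over 1.5 times, 4 larger and 1, IFIT3, of the opposite sign. CYFIP2 then stood at 0.70, IFITM1 at 0.71, IFIH1 at 0.38, ADAR at 0.23, CALR at 0.40, MSMO1 at 0.37, MVK at 0.23, SREBF2 at 0.18, SREBF1 at 0.11, GATA3 at 0.16, PGAP3 at 0.36, FOSB at 0.43 and MCM5 at 0.12. Of the lower ones, LMNB1 stood at -0.38, TAC3 at -0.37, CLDN7 at -0.21, SLC25A24 at -0.73, DNAJA4 at -1.08 and AGO2 at -0.56.

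**Figure D4:**
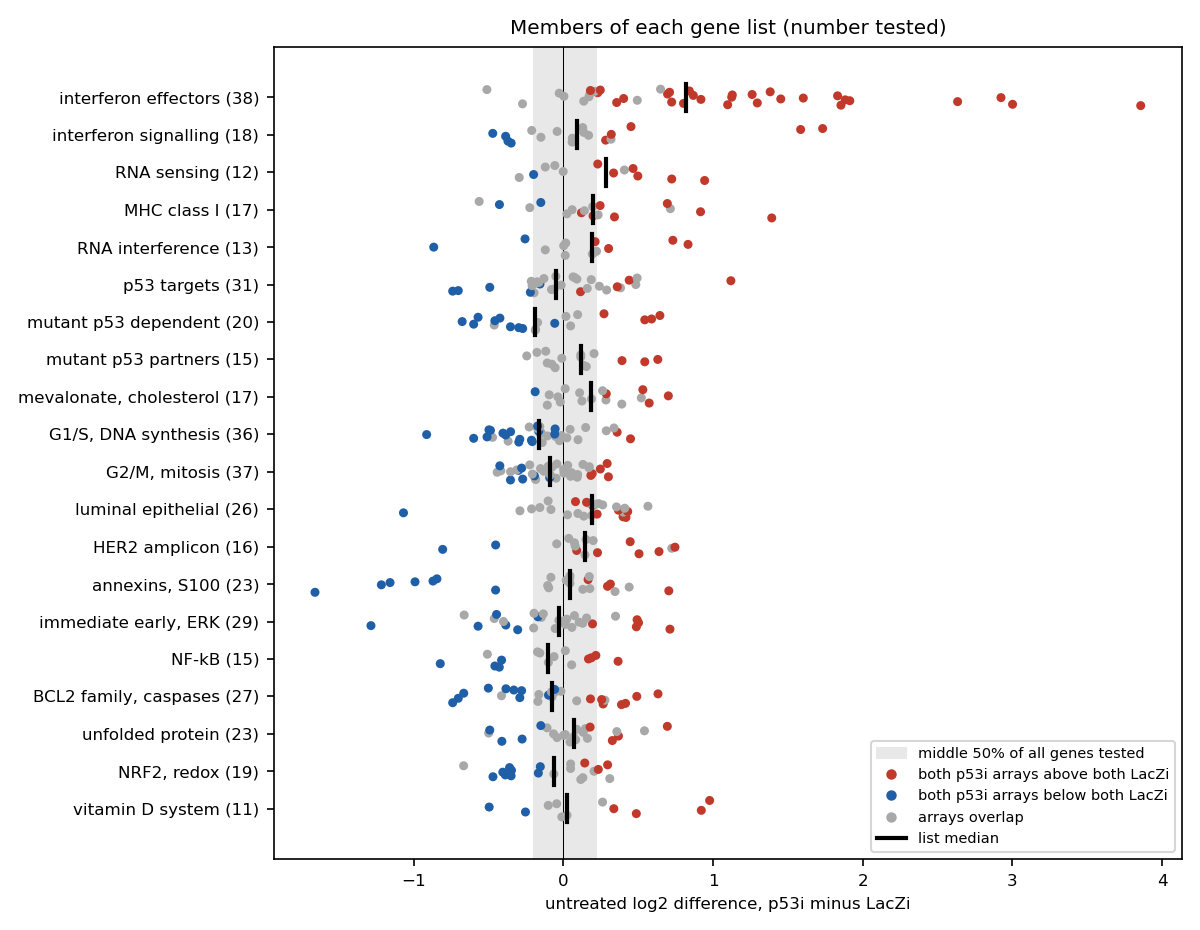
Each point is a tested member of a gene list, placed by its untreated log2 difference (p53i minus LacZi). Red points lie above and blue points below both control arrays on both p53i arrays, grey points overlap, black bars are list medians and the shaded band holds the middle 50% of all genes. The interferon effectors have a median of 0.82, and the other medians drawn lie between -0.19 and 0.28. The interferon ligands, with 1 tested member, and the basal and mesenchymal genes are not drawn.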

How the data were processed

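The deposited table held 1 intensity per probe set and array on a linear scale, which per the submitters' processing notes are MAS5 signals of unstated version. With 2% of values trimmed at either end, each array averaged 200.0, so the authors' values were already scaled and were not normalised again. The platform annotation gave 1 symbol to 41097 of 54675 probe sets, several to 1801 and no symbol to 11777. Signals were converted to log2(signal + 16), each gene was represented by its probe set with the highest mean over the 10 arrays, and the upper 50% of probe sets were kept (signal above 35.4). The test was limma 3.58.1, run in R 4.3.3 (lmFit, eBayes with an intensity trend, two-sided, Benjamini-Hochberg over 12022 genes, threshold 0.05). The untreated fit used its 4 arrays and had 2 residual degrees of freedom, as had the fit of the 6 D3 arrays with time as a block, where nothing states separate cultures. The number of arrays limits the precision.

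Genes were named if called, if among the 15 largest differences in each direction by the rule given in the text, or if among the 5 smallest p of a list. VDR, CYP24A1, CDKN1A, MDM2, ERBB2 and MYC were always named, and others are marked as chosen after their values were seen. The members and the lists were chosen with earlier results of these data known. The fits were tested on simulated data. Alternatives covered normalisation, offset, filter, probe-set choice, the source of the spread, the ACTB ratio, the replicate block and left-out arrays. The siRNA target was not analysed here.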

Additional observations from a re-analysis of the deposited data

Results flagged for a closer look

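In 4 named genes the untreated arrays did not overlap between the siRNAs while all 3 D3 times differed the other way. The interaction, D3 difference minus untreated difference, was 1.54 for LMNB1, 1.02 for SESN2, a stress-induced regulator of growth signalling, -0.59 for ETS2 and 0.61 for NCOA1. Tested with limma over all genes, none passed (adjusted p = 0.893 for each, with unadjusted p of 0.00744, 0.00302, 0.00679 and 0.017). SESN2 had 238 and 234 on the LacZi arrays against 138 and 192 in untreated cells, a difference of -0.49, and stood at 0.52 on the D3 arrays.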

How the results depend on the processing

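The count of 1 called gene stayed at 1 with quantile normalization, median centring, no offset, an offset of 64, the upper 25% of probe sets, the choice over the 4 untreated arrays and every probe set singly. It was 0 without a filter (smallest adjusted p = 0.232), with the mean of probe sets (0.0916) and without the intensity trend (0.435), where 1837, 1089 and 1175 genes had an unadjusted limma p under 0.05. It was also 0 with the filter and probe sets chosen on the 5 LacZi arrays, where IFI27 did not pass (smallest adjusted p = 0.0812, 1379 at an unadjusted p under 0.05), an alternative added after the data were seen. It was 40 with the spread from all 10 arrays and 2 (IFI27 and ISG15) with the ACTB ratio as a covariate as well. Leaving out 1 array gave 3 to 265 calls and 698 to 2478 genes at an unadjusted p under 0.05. The count was 51 without LacZi replicate 1, 12 without LacZi replicate 2, 265 without p53i replicate 1 and 3 without p53i replicate 2, IFI27 among them each time, and the lone array is then assumed to vary like the other group. These fits have 1 residual degree of freedom. With the replicate number as a block, 664 genes were called and 2377 had an unadjusted p under 0.05. Deviations of same-numbered arrays correlated at 0.216 over only 2 pairs and no label ties the numbers, so they were not treated as pairs.

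The median of the interferon effectors was 0.62 with an offset of 64, 0.70 without a filter, 0.71 with the upper 25%, 0.71 with the choice on LacZi arrays, 0.65 with the mean of probe sets and 0.72 with the ACTB ratio, and 0.79 to 0.90 with 1 array left out. The D3 arrays gave 199 calls without the time block and 422 to 551 without 1 time. The interaction called 0 genes in each fit. With the mean of probe sets, 8 named genes turned sign: MDM2 (0.17), KRT7 (-0.035), JUND (-0.019), MCL1 (-0.33), CASP2 (-0.0046), RXRB (-0.13), AHNAK (0.14) and IFIT3 (0.17). IFIT3 also turned with the ACTB ratio (0.15) and without LacZi replicate 1 (0.41) or p53i replicate 2 (0.34), with a range of -0.95 to 0.41 over the left-out arrays. Without p53i replicate 1, VDR (0.10, range -0.12 to 0.10) and CDKN1A (0.12, range -0.51 to 0.12) turned. XAF1 was -0.35 without an offset and JAK3 0.16 with the choice over 4 arrays. The cause was not tested, apart from the other probe sets that then represent a gene. The 2 arrays per group limit the precision of these differences.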
